A study of Eriocheir sinensis with 2 samples.

Results

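Microtubule proteins of the Y-organ, the gland of the Chinese mitten crab *Eriocheir sinensis* that secretes ecdysteroids (molting hormones), were followed in 1 library of untreated crabs and 1 library of eyestalk-ablated crabs. The members are the unigenes (assembled transcript sequences) whose best protein hit is named with tubulin, kinesin, dynein, dynactin, microtubule, centrosom, intraflagellar, stathmin or katanin, without those whose best hit is a ciliate. They number 108 of the 47966 unigenes with a read, of which 13314 have an annotation. The word tubulin is held by 49 members, kinesin by 22, microtubule by 13, dynein by 12, dynactin by 8, centrosom by 2, and stathmin and katanin by 1 each. No member is annotated with intraflagellar (0 unigenes), and no dynein member is named as axonemal, ciliary or flagellar. A further 8 unigenes hold the word tubulin and have a ciliate as best hit, and these are kept apart from the members.

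Sample C0 was the Y-organ of crabs whose eyestalks were left in place, and sample C1 was that of crabs from which the eyestalk had been removed, both taken after 48 h. The crabs weighed 5 to 6 g, were kept in fresh water at 18 to 20 °C, and numbered 60 in all, or 30 per group. Neither strain, sex nor age is given, no sham operation is described, and each group was sequenced as 1 library (mRNA with poly(A) tails, fragmented). The comparison asks how the tubulins, the motors and their partners stood in the gland after removal of the eyestalk, the source of the neuropeptides that restrain it. With 1 library per group no difference has a replicate check.

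Microtubules are hollow polymers of alpha and beta tubulin dimers, and gamma tubulin in its ring complex starts new ones. Tubulin monomers are folded by the cytosolic chaperonin and then by dedicated cofactors before they can pair, and the finished polymer is marked by enzymes such as polyglutamylases. Kinesins mostly walk toward the plus end, and cytoplasmic dynein, with its activator dynactin, walks toward the minus end, carrying vesicles, mitochondria and chromosomes. In steroid-secreting cells of vertebrates, microtubules are known to position mitochondria and lipid droplets. All of these proteins are also used by dividing cells to build the spindle.

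The depth, as reads on unigenes divided by 1e+06, was 4.15 in C0 and 3.75 in C1, and 9 reads was the median of the detected unigenes of either library. Levels are given as reads, as RPM (reads per 1e+06 unigene reads), or as RPKM (RPM per kilobase of unigene) where unigenes are compared with each other. A log2 ratio is C1 over C0 on reads per library total, with 0.5 read added. Its 95% interval (Wilson) accounts for the error of counting reads alone. Copies of 1 molecule made by PCR are counted as separate reads, which the interval does not account for. A differentially expressed unigene (DEU) has an adjusted p of at most 0.001 (exact two-sided binomial test, Benjamini-Hochberg over all 47966 unigenes) and a log2 ratio beyond 1, the study's thresholds. This test compares the 2 libraries and not the conditions. The TMM factors of edgeR, another scaling, lower every log2 ratio by 0.17 (a shift of -0.17), and the median over unigenes with 10 reads or more was 0.15. Where 0 reads were counted, the share of the library may still be up to 7.22e-05% (C0) or 8.00e-05% (C1), the size of 3 reads. In such bulk tissue, fewer cells of a type and less RNA per cell cannot be told apart.

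The libraries held the ecdysteroid synthesis genes of the gland, and also transcripts of other cells. The 5 unigenes annotated as ecdysteroid synthesis genes took 6.71% of the reads in C0 and 6.96% in C1, and all 5 were detected in both. Unigene19254 alone had 277318 and 259118 of the 278608 and 261236 reads on this list, so these shares are mainly its own. Its log2 ratio was 0.05 (-0.12 with TMM factors). Over unigenes of the list with at least 10 reads the median was 0.58. Of these, 4 were higher in C1 and 0 lower, or 3 and 1 with TMM factors. Unigene47941 rose from 907 to 1390 reads at 0.76. Unigene1867 rose from 323 to 654 at 1.16 and was a DEU, a call lost with TMM factors (0.99). The muscle list (35 unigenes) had 3633 RPM in C0 and 3425 in C1, and its median log2 ratio was -0.70. Arginine kinase (Unigene19602) alone had 6274 and 8157 of the 15084 and 12848 reads on this list. With at least 10 reads, 8 of the muscle unigenes were higher in C1 and 19 lower. Of 12 unigenes on the neuron list, synaptotagmin-1 had 3 C0 reads and 0 C1 reads, and the list summed to 96 and 40 reads, most of them on neurexin-4 and on YKT6, a general vesicle protein. The hemocyte list had 3547 and 4602 RPM, but its median log2 ratio was -0.41, and without 2 anti-lipopolysaccharide factor unigenes the other 17 had 3565 and 2615 reads. The hepatopancreas list had 579 and 562 RPM. Most of its reads were on a cathepsin L (Unigene19364, 1909 and 1646) and a trypsin-like protease (Unigene18865, 425 and 404). Amylase had 3 and 2 reads, and the word trypsin also took in inhibitor chains. The list for cuticle and epidermis had 525 and 1093 RPM, where 1 unigene (arthrodial cuticle protein AMP9.3) had 1939 and 3888 reads and the other 17 had 239 and 213. Of 11 unigenes on the list for proliferating cells, 2 were DEUs higher in C1, both PCNA (a clamp of DNA replication) with 101 and 380 reads and with 32 and 160. The list summed to 365 and 937 reads. Topoisomerase 2, which untangles DNA, had 116 and 207, 71 and 122, and 21 and 44 reads on its 3 larger unigenes, each with a log2 ratio of 0.92 or more. The mitotic cyclin B, at far fewer reads, had 12 in C0 and 9 in C1 on one unigene and 7 and 2 on the other. Unigenes with a ciliate best hit (205) summed to 9050 RPM in C0 and 3158 in C1. The part of these lists in the results that follow was not tested, except where values with and without ciliate hits are given.

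Reads of the 108 members summed to 10125 in C0 and 8604 in C1, which is 2438 and 2294 RPM, a log2 ratio of -0.09 (-0.13 to -0.05). As a whole the microtubule members thus held nearly the same share of both libraries. A single alpha tubulin, CL293.Contig1, took 40.7% of these reads in C0 and 32.5% in C1, and without it the log2 ratio of the sum was 0.10 (0.05 to 0.15). The 5 most abundant members took 64.4% and 63.0%. Reads from both libraries fell on 93 members, while 7 were seen only in C0 and 8 only in C1. Of all 47966 unigenes, 41370 were seen in both, 3463 only in C0 and 3133 only in C1, which are similar shares. Many single members had few reads: 73 had at least 10 reads in both libraries together, 34 had at least 50, and 35 had fewer than 10. Of all 47966 unigenes, 30436 had at least 10, 11398 had at least 50 and 17530 had fewer than 10. The median was 17 reads for the members and 16 for all unigenes, so the members were not read less deeply.

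Of the 108 members, 5 (4.63%) were DEUs, beside 4.03% of all unigenes. The 3 that were higher in C1 stand beside 2.32% of all unigenes in that direction, and the 2 that were lower beside 1.7%. Among annotated unigenes without ciliate hits these shares were 2.19% and 2.16%. The 3 higher were an alpha tubulin-like unigene, a tau-tubulin kinase 1-like unigene and a dynein light chain of the roadblock type, and the 2 lower were alpha tubulins. Among the unigenes with at least 50 reads, where a call is within reach, 3 of 34 members were DEUs higher in C1 (background 8.66%) and 2 were lower (background 6.4%). The share of members called was thus near that of all unigenes. Among the 73 members with at least 10 reads the median log2 ratio was -0.03, with 36 higher and 37 lower. Over all unigenes with as many reads it was 0.15 with 58.7% higher, over the annotated ones -0.07, and over the annotated ones without ciliate hits -0.06. The members' median was therefore close to that of annotated unigenes, and below that of all unigenes. An adjusted p of at most 0.001 by the exact test, whatever the fold, was reached by 6 members higher in C1 (background 3.46%) and 4 lower (background 2.45%), all 10 of them among the 34 with at least 50 reads, where the background was 23%. Whatever the fold, 10 members higher in C1 and 10 lower had an adjusted p of at most 0.05 by the exact test. Over all 47966 unigenes these numbers were 3506 and 2095. With TMM factors 2 members were DEUs higher in C1 (background 1.52%) and 4 lower (background 2.2%), in all 6 beside 3.72%. With an assumed biological coefficient of variation, which stands in for the missing replicates, edgeR's exact test called 4 members at 0.1 (background 2.58%) and 1 at 0.2 (background 0.615%).

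**Figure D1:**
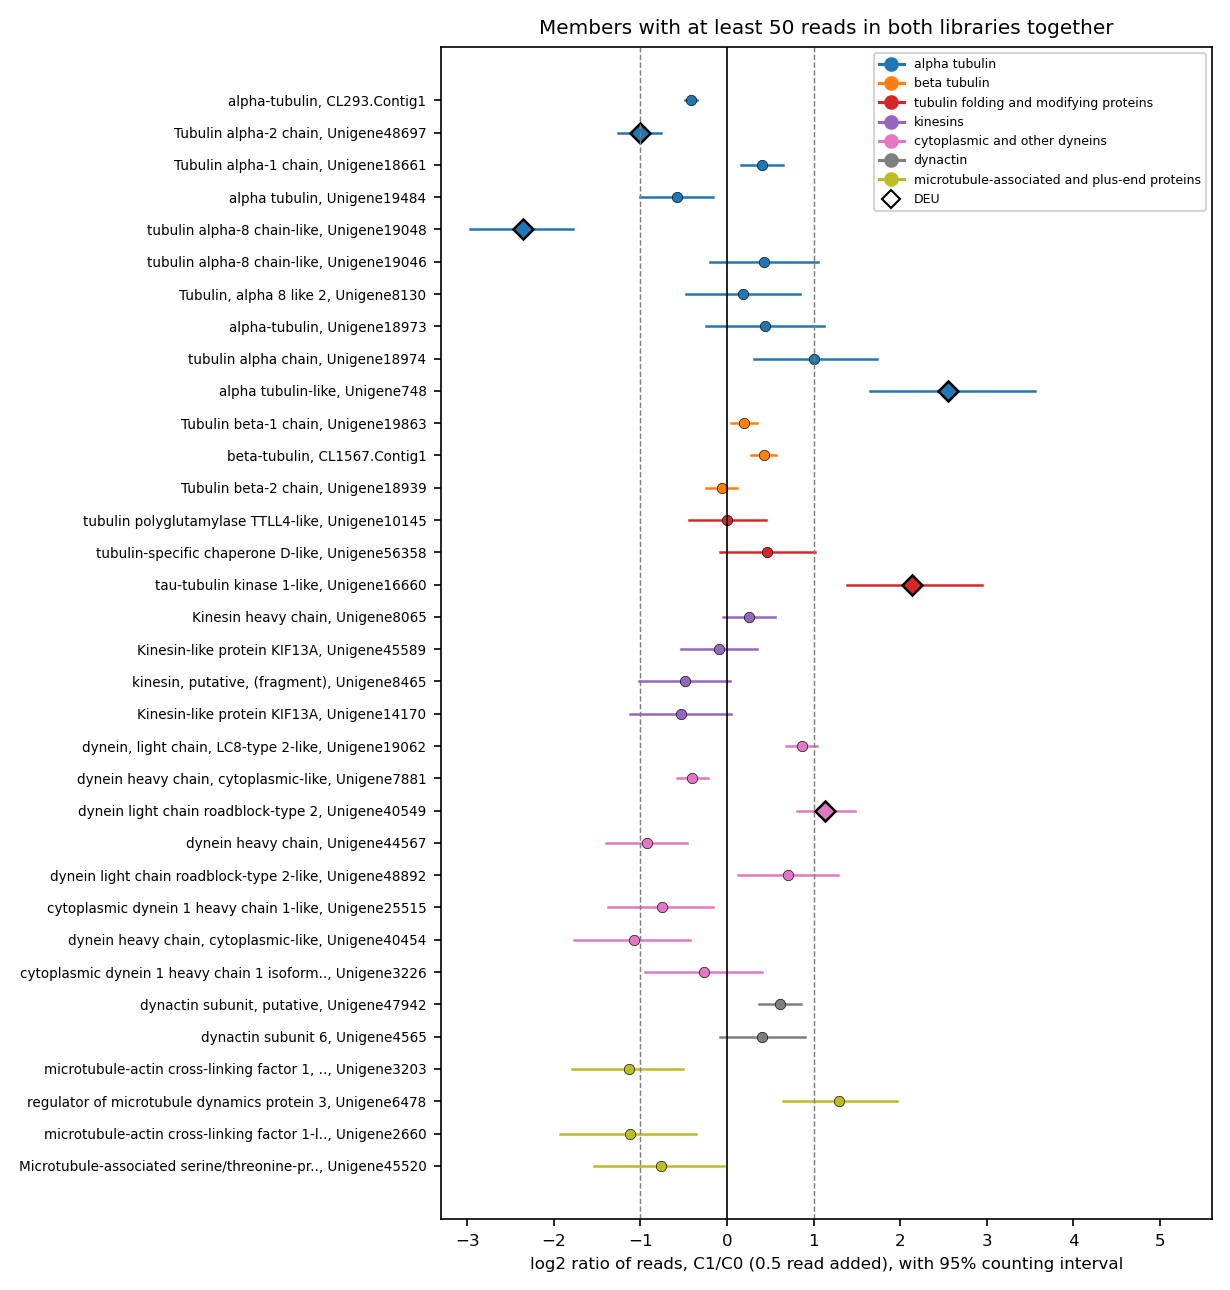
Log2 ratio (C1/C0) of the 34 members with at least 50 reads, one line each, colored by role. Points are ratios of reads with 0.5 read added, bars are 95% counting intervals, diamonds are DEUs and dashed lines mark a log2 ratio of 1 in each direction. The tubulins spread to both sides, from -2.35 to 2.55, and the dynein heavy chains lie left of 0 while the dynein light chains lie right of it.

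By role, the summed reads were higher in C1 for some and lower for others. Alpha tubulin (17 unigenes) summed to 5236 C0 reads and 3620 C1 reads, at a log2 ratio of -0.39 (-0.45 to -0.32). Beta tubulin (8 unigenes) summed to 1967 and 2054 reads, at 0.21 (0.12 to 0.30). The subunits that pair one to one in the polymer thus stood on opposite sides of 0, while their levels per length, summed over unigenes, were 1160 and 1008 RPKM for alpha tubulin and 432 and 497 RPKM for beta tubulin. With TMM factors the beta tubulin sum was at 0.04, so its direction is small beside the choice of scaling, and the alpha tubulin sum was at -0.55. Dynactin (8 unigenes, 358 and 445 reads) was at 0.46 (0.26 to 0.66), and at 0.29 with TMM factors. Kinesins (22 unigenes, 503 and 436 reads) were at -0.06 (-0.24 to 0.13), an interval that holds 0.

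**Figure D2:**
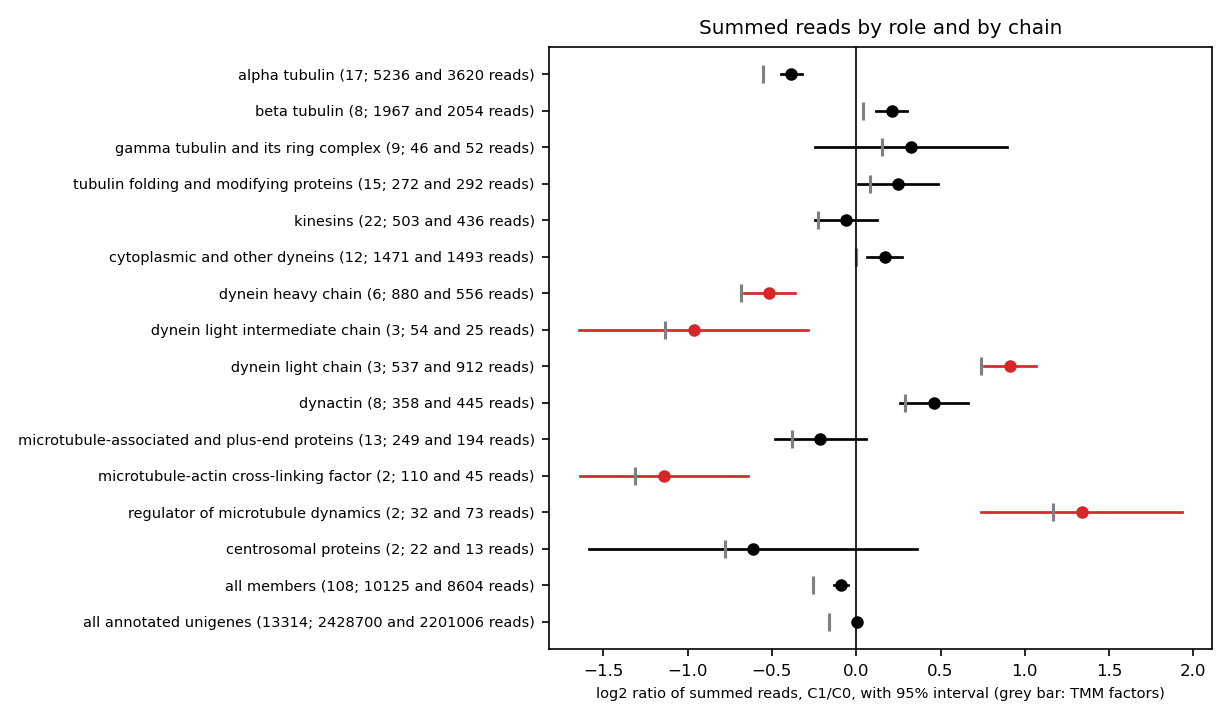
Log2 ratio (C1/C0) of reads summed over the members of each role, with the number of unigenes and the reads in C0 and C1 in the label. Black points are roles, red points are chains or proteins within the role above them, bars are 95% counting intervals and grey ticks give the ratio with TMM factors. Dynein light chains (0.91) and dynein heavy chains (-0.52) lie on opposite sides of 0 and average out in the sum of all dyneins (0.17).

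The most abundant member was CL293.Contig1, alpha tubulin with *E. sinensis* itself as best hit, at 629 RPKM in C0 (4122 reads) and 472 RPKM in C1 (2793 reads). Its log2 ratio was -0.41 (-0.48 to -0.35), with an adjusted p of 4.14e-30 by the exact test, and its fold stayed under the threshold of a DEU. The adjusted p rests on counting error, and edgeR's exact test with a coefficient of variation of 0.1 gave 0.306. Without this unigene, the other 16 alpha tubulins summed to a log2 ratio of -0.28 (-0.41 to -0.15). Without the 2 alpha tubulin DEUs that were lower in C1 as well, the remaining 14 had 555 and 617 reads.

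The alpha tubulins had the widest range of log2 ratios of all roles, from -2.35 to 2.55 with at least 50 reads. Unigene48697, with the alpha-2 chain of a lobster as best hit, fell from 410 to 184 reads, a log2 ratio of -1.01 (-1.26 to -0.76), and was a DEU (adjusted p by the exact test 2.48e-14). It lies at the fold threshold, and edgeR's exact test with a coefficient of variation of 0.1 no longer called it (adjusted p 0.00117). Unigene19048, annotated as an alpha-8 chain-like tubulin of the platypus, fell from 149 to 26 reads, or from 32.4 to 6.26 RPKM. Its log2 ratio of -2.35 (-2.97 to -1.77) was the lowest among the members with at least 50 reads, and it was the only member still called with a coefficient of variation of 0.2.

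In the other direction, Unigene748, alpha tubulin-like with an acorn worm as best hit, rose from 10 to 55 reads, or from 7.28 to 44.3 RPKM. Its log2 ratio of 2.55 (1.65 to 3.56) was the highest among these members, with an adjusted p of 2.78e-08 by the exact test. Unigene18661, an alpha-1 chain with an ant as best hit, had 251 and 300 reads (239 and 316 RPKM) at 0.40 (0.16 to 0.65), and did not pass. Unigene18974, with a planarian as best hit, had 24 and 44 reads at 1.01 (0.31 to 1.73), and its adjusted p of 0.0445 by the exact test did not pass either. Over the 13 alpha tubulins with at least 10 reads, 7 were higher in C1 and 6 lower, with a median of 0.19, so the median and the sum differ in sign.

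The 3 abundant beta tubulins lay near 0. Unigene19863, a beta-1 chain with a lobster as best hit, was the most abundant at 236 RPKM in C0 and 270.5 RPKM in C1 (744 and 770 reads), a log2 ratio of 0.20. CL1567.Contig1 had 665 and 805 reads at 0.42 (0.27 to 0.57), with an adjusted p of 6.52e-07 by the exact test and a fold under the threshold. Unigene18939, a beta-2 chain, had 539 and 466 reads at -0.06 (-0.24 to 0.12). None of the 8 beta tubulins was a DEU (0 by the exact test and 0 with TMM factors), and 1 had an adjusted p of at most 0.05. The share of DEUs over all unigenes was 4.03%, and only these 3 beta tubulins had at least 50 reads. Of the other 5, Unigene18941 had 11 C0 reads and 1 C1 read (interval from -5.90 to -0.72), and the rest had at most 4 reads in a library.

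Reads on the tubulins were unevenly placed. Among all unigenes with at least 100 reads in C0, the median share of the unigene covered by reads was 97.4%, and 7.48% of them were covered to under 80%. Of the 8 alpha and beta tubulins with as many reads, 4 were covered to under 80%, with a range of 42.3% to 99.3%, while all 6 other members of that depth were covered to at least 85.6%. CL293.Contig1 was covered to 78.7% in both libraries in spite of its 4122 and 2793 reads, CL1567.Contig1 to 42.3% and 41.5%, and Unigene18939 to 55.2% and 55.1%. In these 3 the gaps were about as large in C0 as in C1. In Unigene19048, the fourth, the covered share went from 68.9% in C0 to 48.7% in C1 along with its reads. A second unigene with the *E. sinensis* alpha tubulin as best hit, Unigene18973, has the length of CL293.Contig1, 1578 bp, and was covered to 8.56% and 8.75% with 31 and 38 reads. Unigene19046, a further alpha-8 chain-like tubulin of 2116 bp, was covered to 5.95% and 5.91%. Only uniquely mapped reads were counted, so reads that fit several tubulins are missing, and values of single tubulin unigenes are uncertain in level. The share of reads lost this way was not measured.

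**Figure D3:**
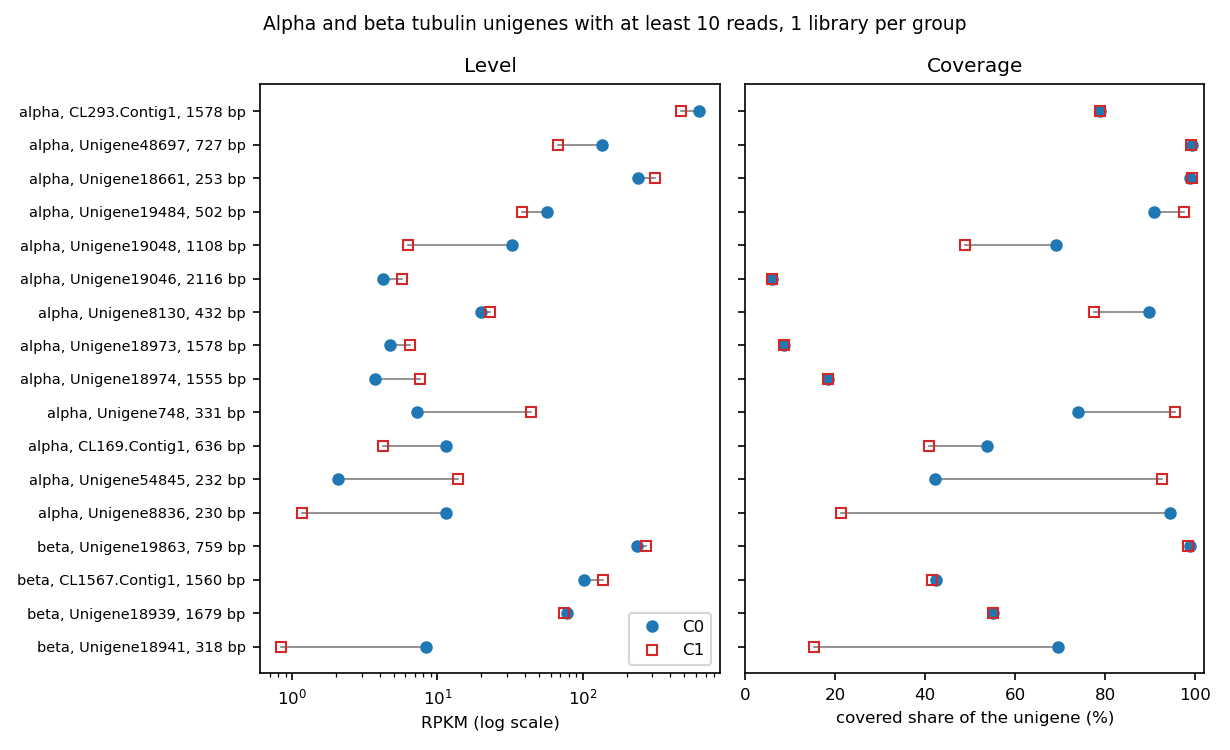
RPKM (left, log scale) and the share of the unigene covered by reads (right, percent) of the 17 alpha and beta tubulins with at least 10 reads. Filled circles are C0, open squares C1, and each row is 1 unigene with its length. CL293.Contig1 is the highest in both libraries at 629 and 472 RPKM, and several of the longest unigenes are covered only in part, to much the same extent in both libraries, unlike Unigene19048 (68.9% and 48.7%).

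The best hits of the alpha and beta tubulins were of several kinds, and the ratios spread more widely where the hit was not an arthropod. The 11 unigenes with an arthropod best hit had 6797 and 5373 reads, and the 7 of them with at least 50 reads lay between -1.01 and 0.44. The 13 with another animal as best hit had 287 and 229 reads, and the 5 with at least 50 reads lay between -2.35 and 2.55. The extreme ratios were on this second kind, at low read numbers, and 2 of the 3 DEUs were among them. Unigene19484, alpha tubulin with a unicellular organism other than a ciliate as best hit, had 119 and 72 reads at -0.57 (-0.999 to -0.16).

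The 8 ciliate tubulins outside the members went from 4271 reads in C0 to 1099 in C1, at -1.81 (-1.91 to -1.72). Of these, 7 were DEUs lower in C1 and 0 were higher, and the remaining one, of *Euplotes*, had 1 read in each library. The largest was a beta tubulin with *Ichthyophthirius* as best hit, Unigene44691, with 1967 and 426 reads. An alpha tubulin with *Zoothamnium*, a stalked ciliate, as best hit, Unigene14221, had 831 and 241 reads. Of the 197 other ciliate unigenes, 107 were DEUs lower in C1 and 0 higher. In C0 the ciliate tubulins had 4271 reads beside 7203 on the alpha and beta tubulin members, and in C1 1099 beside 5674. Which members with a distant best hit come from the crab cannot be told apart from the annotation alone. Restricted to arthropod best hits, 58 members remained, with 2 DEUs and a log2 ratio of the summed reads of -0.16.

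**Figure D4:**
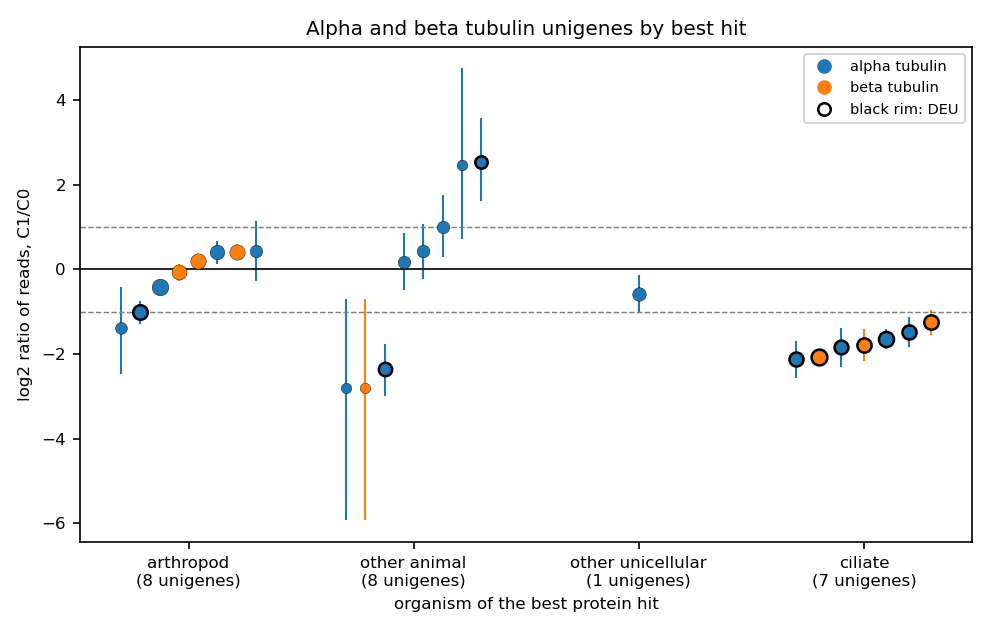
Log2 ratio (C1/C0) of alpha (blue) and beta (orange) tubulin unigenes with at least 10 reads, by the organism of the best protein hit. Bars are 95% counting intervals, larger points have more reads and a black rim marks a DEU. The 7 ciliate unigenes lie between -2.12 and -1.25, and the 8 unigenes with an arthropod best hit between -1.39 and 0.44.

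Gamma tubulin and its ring complex were scarce in both libraries. The 9 unigenes summed to 46 reads in C0 and 52 in C1, at 0.32 (-0.25 to 0.89), an interval that holds 0. The gamma-1 chain had 12 and 15 reads on Unigene15021 and 8 and 8 on Unigene26462. Component 3 of the ring complex had 6 and 10 reads on Unigene5042. At this depth a difference in the machinery that starts microtubules was not detectable.

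Tubulin folding and modifying proteins (15 unigenes) summed to 272 and 292 reads, at 0.25 (0.01 to 0.49). The sum was at -0.27 with arthropod best hits only, so its direction rests on the annotation. Unigene16660 alone had 16 and 65 of these reads, a rise larger than that of the whole sum. The direction of the sum therefore also rests on this 1 unigene. Unigene10145, similar to the polyglutamylase TTLL4, which adds glutamate chains to tubulin tails, was level with 85 and 77 reads (19.7 RPKM in both). Unigene56358, a partial chaperone D, had 48 and 60 reads at 0.47 (-0.08 to 1.01). Over the 6 unigenes for chaperone or cofactor D, which helps to assemble the alpha and beta dimer, the reads were 114 and 118. For cofactors C and E (4 unigenes) they were 44 and 21, at -0.92 (-1.66 to -0.18). None of these was a DEU (0 of 4 by the exact test, beside 4.03% of all unigenes), and 0 of them had at least 50 reads. In 1 of them the adjusted p by the exact test was at most 0.05.

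Unigene16660, tau-tubulin kinase 1-like, rose from 16 to 65 reads, or from 7.06 to 31.7 RPKM. Its log2 ratio was 2.14 (1.39 to 2.95), with an adjusted p of 6.33e-08 by the exact test. Tau-tubulin kinases phosphorylate tau and tubulin in mammals. The hit is to a platypus protein with an expected value of 5.87e-06, weak beside most members, and 30 of the 108 members had an expected value above 1e-20. The name of this unigene is therefore uncertain.

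Kinesins were the largest family of motors by number of unigenes and held no DEU (0 of 22 by the exact test, 0 with TMM factors). The share over all unigenes was 4.03%, and only 4 kinesins had at least 50 reads, where a call is within reach. No kinesin had an adjusted p of at most 0.05 by the exact test (0 unigenes). At least 10 reads were on 11 kinesins, 5 of them higher in C1 and 6 lower. Unigene8065, the heavy chain of the conventional kinesin that carries vesicles and mitochondria, had 171 and 184 reads (37.7 and 44.9 RPKM) at 0.25 (-0.05 to 0.55). KIF13A, a vesicle motor, had 91 and 77 reads on Unigene45589, and 152 and 118 over its 3 unigenes. The intervals of these transport motors hold 0. Unigene8465, a kinesin fragment with *Trypanosoma* as best hit, had 73 and 47 reads at -0.48 (-1.01 to 0.04).

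Kinesin-II and its accessory proteins, which drive transport within cilia and also move pigment granules and vesicles, had 45 and 41 reads over 6 unigenes. The kinesins known for the spindle (KIF18A, KIF4A and Klp10A, 3 unigenes) had 17 reads in C0 and 6 in C1, an interval of -2.65 to -0.06. On 2 of them the reads were lower in C1 and on the third there were 0 reads in C0 and 1 in C1. The spindle kinesins were thus near the limit of detection in both libraries, beside the PCNA unigenes that were higher in C1.

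Dyneins (12 unigenes) summed to 1471 reads in C0 and 1493 in C1, at 0.17 (0.06 to 0.27), and at -0.00098 with TMM factors. Inside this level sum the chains differed, a split that was chosen after the values had been seen and is given without a test. The heavy chain, which holds the motor domain, had 880 and 556 reads over 6 unigenes, at -0.52 (-0.67 to -0.36). The light intermediate chain, which links the motor to cargo, had 54 and 25 reads over 3 unigenes, at -0.96 (-1.64 to -0.29). The light chains, small subunits of the cargo-binding tail, had 537 and 912 reads over 3 unigenes, at 0.91 (0.76 to 1.06). With at least 10 reads, all 5 heavy chain and all 3 light intermediate chain unigenes were lower in C1, and all 3 light chain unigenes were higher, also with TMM factors. The light intermediate chain unigenes had 23 and 14, 23 and 8, and 8 and 3 reads. Their adjusted p values by the exact test were 0.627, 0.122 and 0.604. They can be fragments of 1 transcript, so they do not count as 3 separate genes.

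Among the heavy chain unigenes, Unigene7881 of 5269 bp, the longest member, had 602 and 412 reads (27.5 and 20.8 RPKM). Its log2 ratio was -0.40 (-0.58 to -0.22), with an adjusted p of 0.000269 by the exact test and a fold under the threshold. Unigene44567 had 112 and 53 reads at -0.93 (-1.40 to -0.46), with an adjusted p of 0.0014 by the exact test. Unigene40454 had 59 and 25 reads at -1.08 (-1.76 to -0.42), Unigene25515 had 62 and 33 at -0.75 (-1.37 to -0.16), and Unigene3226 had 40 and 30 at -0.26 (-0.94 to 0.41). None of the 6, of which 5 had at least 50 reads, was a DEU by the exact test (0 unigenes, beside 4.03% of all unigenes). An adjusted p of at most 0.05 by the exact test was reached by 3, and Unigene44567 was a DEU with TMM factors. A heavy chain is a very long protein, and these unigenes can be fragments of 1 transcript, so they do not count as separate genes that moved the same way.

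Of the light chains, Unigene19062, LC8-type, had 390 and 640 reads (80.1 and 145 RPKM). Its log2 ratio was 0.86 (0.68 to 1.04), with an adjusted p of 3.18e-19 by the exact test and a fold under the threshold. LC8 is known as a hub that also binds many proteins outside dynein. Unigene40549, of the roadblock type with a crayfish as best hit, rose from 107 to 213 reads, or from 22.3 to 49.1 RPKM, at 1.14 (0.81 to 1.47), and was a DEU with an adjusted p of 3.00e-10 by the exact test. With TMM factors its log2 ratio was 0.97 and with median ratio size factors 0.99, so that call is lost with either scaling. A second roadblock unigene, Unigene48892, had 40 and 59 reads at 0.70 (0.13 to 1.28), and its adjusted p of 0.13 by the exact test did not pass.

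Dynactin, the activator that couples dynein to cargo, had 0 DEUs among 8 unigenes by the exact test, beside 4.03% of all unigenes. Only 2 of the 8 had at least 50 reads, where a call is within reach. An adjusted p of at most 0.05 by the exact test was reached by 1 unigene. That one, Unigene47942, an unspecified dynactin subunit, had 238 and 329 reads (76.4 and 117 RPKM) at 0.61 (0.37 to 0.85), with an adjusted p of 1.29e-05 by the exact test. It carried most of the reads of the role. Subunit 6 (Unigene4565) had 60 and 72 reads at 0.41 (-0.08 to 0.90), and subunit 2 (Unigene14418) had 11 and 12. In the other direction, subunit 5 (Unigene54019) had 15 and 3 reads, an interval of -3.87 to -0.48 (adjusted p 0.0697 by the exact test), and subunit 4 (Unigene39096) had 13 and 6. With an expected value of at most 1e-20, 5 of the unigenes remained and their sum was at 0.22.

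Microtubule-associated and plus-end proteins (13 unigenes) summed to 249 and 194 reads, at -0.21 (-0.48 to 0.06). The microtubule-actin cross-linking factor, a giant linker of both filament systems, had 66 and 27 reads on Unigene3203 and 44 and 18 on Unigene2660. Over both unigenes the log2 ratio was -1.14 (-1.64 to -0.64). Their adjusted p values by the exact test were 0.005 and 0.0428, above the threshold, and Unigene3203 was a DEU with TMM factors. These can be fragments of 1 long transcript.

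Regulator of microtubule dynamics protein 3 (Unigene6478), a protein of the outer mitochondrial membrane in mammals, had 26 and 58 reads (16.2 and 40.1 RPKM) at 1.29 (0.64 to 1.97). Its adjusted p of 0.00118 by the exact test lay just above the threshold. A second regulator of microtubule dynamics, Unigene724, had 6 and 15 reads, and the log2 ratio over both was 1.34 (0.74 to 1.93). The plus-end binding RP/EB family had 24 and 28 reads over 2 unigenes. Microtubule-associated light chain 3, which is better known as a coat protein of autophagosomes, had 34 and 21 reads over 2 unigenes, at -0.55 (-1.32 to 0.23). The role thus joins proteins of different function under 1 word, and its sum describes none of them.

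The remaining members had few reads, most of them near the limit of detection. Centrosomin-like Unigene50697, whose fly counterpart recruits gamma tubulin to centrosomes, had 22 and 12 reads at -0.70 (-1.72 to 0.27). Centrosomal protein of 97 kDa (Unigene41814) and the katanin p80 subunit (Unigene14173), part of an enzyme that cuts microtubules, had 0 reads in C0 and 1 read in C1 each. Stathmin-4 (Unigene7884), whose family binds free tubulin dimers, had 1 and 4 reads. Severing and destabilising proteins together had 1 read in C0 and 5 in C1, and no difference was detectable at this depth.

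Log2 ratios also differed with the length of the unigene. Over all unigenes with at least 50 reads, the median log2 ratio was 0.24 from 200 to 499 bp, 0.21 from 500 to 999 bp, 0.12 from 1000 to 1999 bp and 0.03 from 2000 bp. For the members the medians were 0.55 (6 members), 0.20 (9), -0.03 (14) and -0.48 (5) in the same classes. The members followed the order of all unigenes over a wider range. Dynein heavy chain fragments are 3 of the 5 members in the last class, and LC8 and the longer roadblock unigene, at 1173 and 1157 bp, lie in the class with a median of 0.12 over all unigenes. Unigene40454, a heavy chain unigene of 1251 bp in that class, was at -1.08. The part of length in the ratios was not tested.

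**Figure D5:**
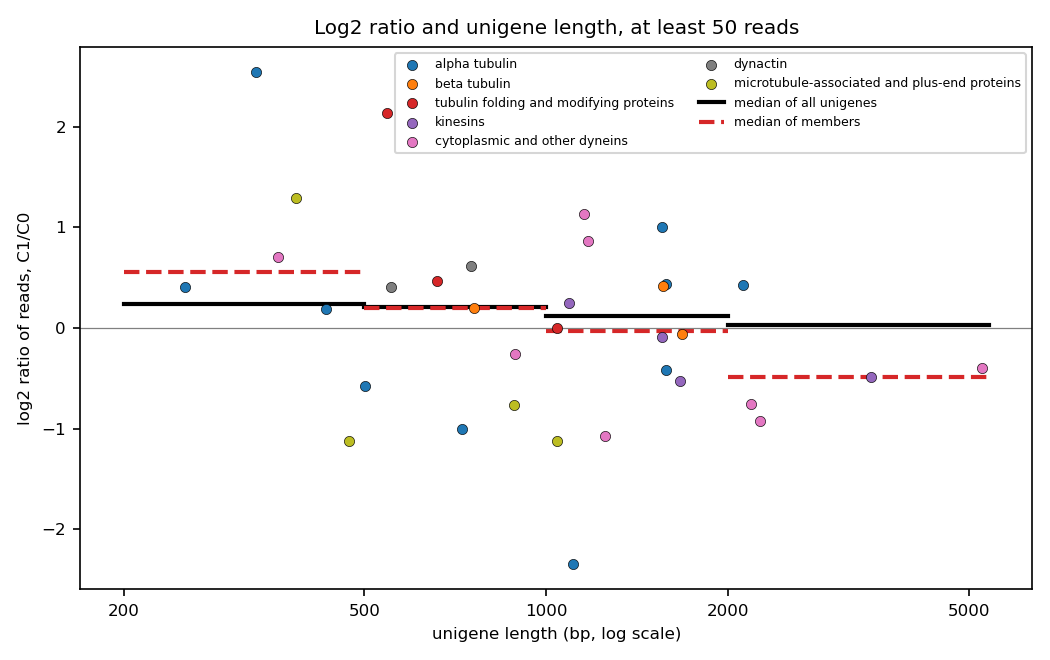
Log2 ratio (C1/C0) against unigene length (log scale) for the 34 members with at least 50 reads, colored by role. Black lines are the medians of all unigenes with at least 50 reads in each length class and dashed red lines those of the members. The median falls from 0.24 to 0.03 over all unigenes and from 0.55 to -0.48 over the members.

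Other microtubule genes, outside the words that chose the members, were counted from a list of names that included the dynein regulators, spindle proteins, septins and ciliary proteins. Of 41 unigenes with such a name, 0 were DEUs by the exact test (background 4.03%), and 0 with TMM factors. Only 5 of the 41 had at least 50 reads, where a call is within reach, so depth limits this count. With at least 10 reads, 8 were higher in C1 and 16 lower, at a median of -0.08, and 1 had an adjusted p of at most 0.05. That one, Unigene3269, is a fragment of mini spindles, a microtubule polymerase in flies, with 43 and 15 reads at -1.34 (-2.21 to -0.54, adjusted p 0.0109 by the exact test). Another mini spindles unigene, Unigene48232, had 82 and 56 reads. The dynein regulator LIS1 (Unigene7764) had 137 and 88 reads at -0.49 (-0.88 to -0.11), with an adjusted p of 0.0963 by the exact test.

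Of 269 further unigenes whose GO text names a microtubule, spindle, centrosome, centriole, cilium or axoneme, 10 were DEUs higher in C1 (background 2.32%) and 4 were lower (background 1.7%). Of the 269, 117 had at least 50 reads, where a call is within reach, and the backgrounds at that depth were 8.66% and 6.4%. With TMM factors 8 were DEUs higher in C1 (background 1.52%) and 7 lower (background 2.2%). The higher ones with the most reads were a fatty acid binding protein (Unigene19968, 492 and 1414 reads), a protein disulfide isomerase (Unigene20060, 595 and 1085), calmodulin (Unigene20051, 420 and 901), PCNA (Unigene40659) and a short-chain dehydrogenase (Unigene26032, 73 and 169). None of these is itself a part of the microtubule. The lower ones were Tcp-1-beta (Unigene44601, 227 and 72), a ribosomal protein S6 kinase (Unigene54656, 137 and 17) and 2 unigenes without a protein name, Unigene26153 (146 and 59) and Unigene7245 (75 and 28).

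Tcp-1-beta is a subunit of the chaperonin that folds tubulin and actin. The unigenes named as subunits of this chaperonin, or only as a chaperonin, were therefore looked at after their values had been seen. Among them, Unigene46135 (243 and 135 reads) is named only as a chaperonin, and the annotation does not give its kind. These 7 unigenes summed to 2943 reads in C0 and 2257 in C1, at -0.24 (-0.32 to -0.16), with 6 lower in C1 and 1 higher. The lower ones ranged from the alpha subunit (Unigene8539, 1425 and 1177 reads) to the epsilon subunit (Unigene31171, 45 and 5 reads, a DEU). The theta subunit (Unigene9326) was level with 676 and 686 reads. With TMM factors the same 6 were lower in C1, and the theta subunit stayed level, at -0.0012.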

How the data were processed

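The authors mapped single-end reads with SOAPaligner/soap2 (version not given in the sources used here) to unigenes of an earlier transcriptome and deposited the count of uniquely mapped reads per unigene. They also deposited RPKM, which divides the count by unigene length and library total, and coverage as a percent of the length. The authors' deposited log2 ratio, p-value and false discovery rate of C1 against C0 were not used. Columns of values without a sample numbered 0. Members, lists and roles were chosen with earlier results of these data known. Named are all DEUs, the 3 members of each role with the most reads, the 5 highest and 5 lowest log2 ratios among members with at least 50 reads, and up to 5 called pathway genes per direction. Other unigenes, the dynein chains and the chaperonin were picked after their values were seen. The tools were scipy 1.17.1, numpy 2.4.6 and pandas 2.3.3 under Python 3.11.15, and edgeR 4.0.16 and DESeq2 1.42.0 (size factors only) under R 4.3.3. The binomial test was tested on simulated data that held counting error alone. That check cannot show how the test behaves with variation between animals or libraries. Figures used matplotlib 3.10.9. For unigenes with at most 3 reads in a library the interval stands in place of a fold. A count of 0 was given a limit of 3 counts. Alternatives covered scaling, assumed variation, thresholds, filters and annotation.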

Additional observations from a re-analysis of the deposited data

How the results depend on the processing

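No paired analysis was possible because each group has 1 library, and for the same reason no replicate could be left out. The number of DEUs among the members was 5, and 6 with TMM factors (2 higher, 4 lower). It was 13 with an adjusted p of at most 0.05, 2 with arthropod best hits only, and 1 and 0 in edgeR's exact test with an assumed coefficient of variation of 0.2 and 0.4. The median log2 ratio of the members (-0.03) was -0.20 with TMM factors, -0.18 with median ratio size factors, -0.19 with arthropod best hits only, 0.10 with at least 50 reads and 0.016 with no filter on reads, and -0.18 minus the median of the length class, an alternative chosen after seeing the data. The log2 ratio of the summed reads (-0.09) was -0.26 with TMM factors, -0.23 with median ratio size factors and -0.16 with arthropod best hits only. Directions turned for the dyneins, at -0.00098 with TMM factors and -0.16 with arthropod best hits only, and for the folding and modifying proteins, at -0.27 with arthropod best hits only and -0.012 with an expected value of at most 1e-20, also chosen after seeing the data. The kinesin sum, whose interval holds 0, went from -0.06 to 0.01 with arthropod best hits only and 0.02 with that expected value. A scaling moves every log2 ratio by 1 constant, and stricter annotation leaves fewer members. Beyond that, the cause was not tested. The counting interval of the summed member reads extends 0.04 to each side, less than the TMM shift of -0.17. By role it extends from 0.06 (alpha tubulin) to 0.57 (gamma tubulin), and further for the centrosomal and severing proteins, so that depth limits the smaller roles and most single unigenes.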
